A study of Mus musculus with 8 samples.

Results

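Rac1 and Rac3 are small GTPases that switch between a GDP-bound and a GTP-bound state and, when bound to GTP, drive the branched actin networks of growth cones and dendritic spines. Exchange factors load them, GTPase-activating proteins such as Srgap2 switch them off, and kinases such as Rock1, an effector of the related GTPase RhoA, act on myosin and actin turnover. In hippocampal neurons these proteins are known for their part in spine shape and plasticity.

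The isoforms described here are the rows of the authors' table that carry the symbol Rac1, Rac3, Rock1 or Srgap2, together with any unnamed row of the same locus. The rule found 6 transcripts of 4 loci among the 1679 transcripts of 1404 loci in the table, and 0 of the 6 were unnamed rows. Rac1, Rac3 and Rock1 each have 1 listed transcript, and Srgap2 has 3. The study sequenced hippocampal RNA of C57BL/6 mice aged 8 weeks, with 4 libraries from wild-type controls and 4 from Jade2 knockouts. Jade2 encodes a PHD-finger partner of the histone acetyltransferase HBO1, and the sources used here do not say how the allele was made. The labels do not tie each library to an animal of its own, and the p-values computed here with limma measure the spread between these libraries. What spread the authors' own p-values measure is unknown, since the sources used here do not name their test. Abundances are the authors' values, taken as FPKM, which corrects for transcript length and sequencing depth. Every value after ± is an SD over the 4 libraries of a group.

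Every row of the table had already been selected on this comparison. In the authors' deposited table unadjusted p reaches at most 0.0498 and the log2 fold change is 1.00 or more in size, so the differences below are descriptions of chosen transcripts and no test of them is given. The 6 transcripts have adjusted p between 0.491 and 0.888 in the authors' deposited table, and 0 of the 6 are under 0.05, against 0.893% of all 1679 rows. Among the 6, the row nearest to the limit on unadjusted p was Srgap2 ENSMUST00000097588, at 0.0490 in the authors' deposited table. Rows beyond the limit were not analysed here. Median abundance per library lay between 0.773 and 0.900 FPKM over the table, and read depth is unknown. The annotated Jade2 transcript ENSMUST00000109091 was listed at 0 in all 4 knockout libraries and at 1.41 to 5.05 FPKM in the controls, while the 5 listed transcripts of the Jade2 locus together came to 8.07 to 19.5 FPKM in the knockouts and 4.45 to 16.0 FPKM in the controls.

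The listed Rac1 transcript, ENSMUST00000080537, encodes the standard Rac1 protein. It lies on mm10 chromosome 5 from 143503634 to 143528036 on the minus strand, with 6 exons, 4159 bases and a coding sequence of 576 bases without the stop codon. GENCODE M21 also annotates ENSMUST00000100489, the splice form known as Rac1b, which contains an additional coding exon of 57 bases (chr5:143509597-143509653, minus strand) and was not analysed here. The junction of the listed transcript and the same place in the other splice form are shown because they are the coding difference between these annotated Rac1 forms. Capitals mark the bases that meet at the junction of the listed form and the whole additional exon of the other. Both were read from GENCODE M21 transcripts, 5′ to 3′.
Rac1 ENSMUST00000080537: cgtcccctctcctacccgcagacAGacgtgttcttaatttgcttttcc
Rac1 ENSMUST00000100489: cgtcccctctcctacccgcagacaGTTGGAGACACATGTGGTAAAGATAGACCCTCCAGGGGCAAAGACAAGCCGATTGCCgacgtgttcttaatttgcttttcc

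The listed Rac3 transcript, ENSMUST00000018156, lies on chromosome 11 from 120721470 to 120723969 on the plus strand and also has 6 exons and 576 coding bases. The Rac1 and Rac3 coding sequences had the same base at 443 of the 576 positions (76.9%), and the longest identical run was 20 bases. The last 60 coding bases before the stop codon are shown because the proteins differ most in their tails, which carry the membrane-targeting signal. In this stretch 23 of 60 positions differed, marked in capitals. The Rac1 stretch is chr5:143506978-143507037 on the minus strand and the Rac3 stretch is chr11:120723547-120723606 on the plus strand of mm10.
Rac1 ENSMUST00000080537: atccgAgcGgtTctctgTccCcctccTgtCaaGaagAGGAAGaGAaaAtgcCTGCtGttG
Rac3 ENSMUST00000018156: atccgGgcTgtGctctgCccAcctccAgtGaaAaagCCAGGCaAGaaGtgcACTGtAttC

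The 3 listed Srgap2 transcripts lie on the minus strand of chromosome 1 and part from each other near the 3′ end of the gene. ENSMUST00000097588 (131285251 to 131527347) is the full-length form, with 23 exons, 8026 bases and 3213 coding bases. ENSMUST00000185596 (131296641 to 131364064) has 17 exons, of which 16 have the same coordinates as exons of the full-length form, and ends in an exon of its own of 559 bases. ENSMUST00000187042 (131289358 to 131300453) has 6 exons and 1192 bases, and includes an exon of 95 bases found in no other annotated Srgap2 transcript. The annotation marks the 5′ ends of both shorter transcripts as incomplete. The junctions that set the 3 apart follow, with the bases after the junction in capitals. They span, introns included, chr1:131296443-131298355, chr1:131297176-131298355 and chr1:131291667-131292544.
Srgap2 ENSMUST00000097588: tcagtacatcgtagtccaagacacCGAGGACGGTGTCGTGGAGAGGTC
Srgap2 ENSMUST00000185596: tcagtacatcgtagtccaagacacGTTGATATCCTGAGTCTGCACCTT
Srgap2 ENSMUST00000187042: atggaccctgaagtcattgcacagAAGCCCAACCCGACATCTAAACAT

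**Figure D1:**
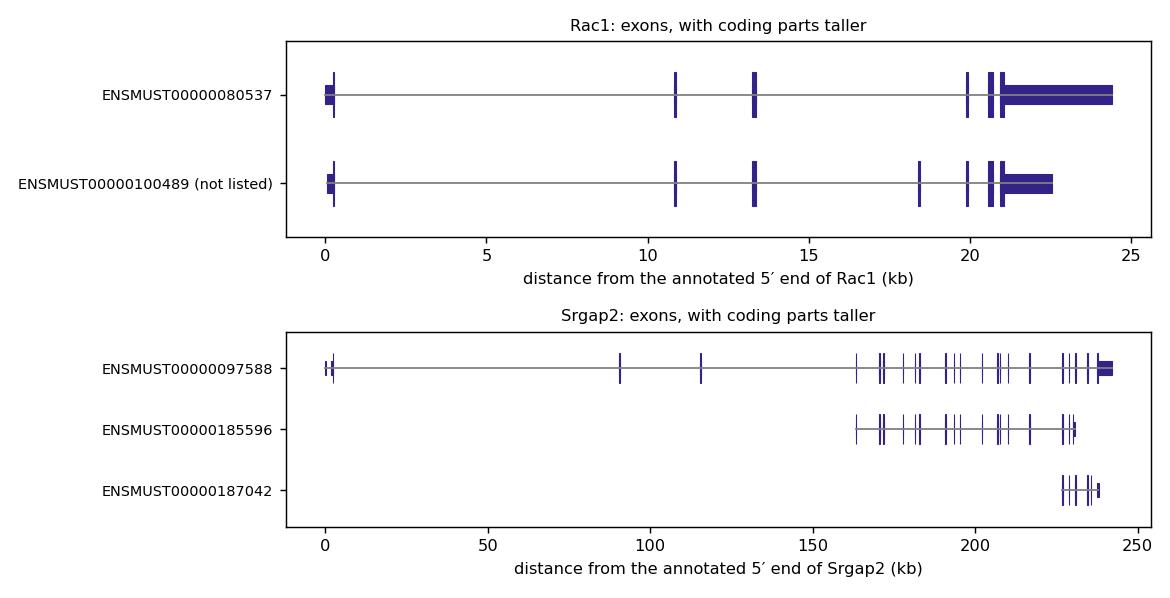
Exon maps of Rac1 (listed ENSMUST00000080537 and unlisted ENSMUST00000100489) and of the 3 listed Srgap2 transcripts, as distance in kb from the annotated 5′ end of each gene. Tall boxes are coding and low boxes untranslated exon parts in GENCODE M21, and the full-length Srgap2 form shares 16 exons with ENSMUST00000185596.

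Rac1 was the most abundant of the 6 transcripts and was lower in every knockout library than in any control. It stood at 64.7, 50.3, 42.2 and 34.2 FPKM in control replicates 1 to 4 and at 8.00, 3.77, 16.9 and 13.9 FPKM in knockout replicates 1 to 4. The groups did not overlap. The control mean was 47.9 ± 13.0 FPKM and the knockout mean 10.7 ± 5.90 FPKM, with n = 4 per group, which is 4.49-fold lower in the knockout. On the log2(FPKM + 0.5) scale the difference was -2.27 (SE 0.494). Its mean over the 8 libraries was above that of 98.8% of the listed transcripts. In bulk tissue, fewer cells expressing a transcript and less of it per cell cannot be told apart.

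The bases that set this Rac1 transcript apart lie opposite another gene. Of its 4159 bases, 1891 are absent from ENSMUST00000100489, and 1848 of those are overlapped by exons of Daglb, a diacylglycerol lipase gene on the plus strand. Exons of Daglb overlap 55.5% of the whole transcript. The sources used here do not say whether quantification used strand, so reads of Rac1 and Daglb in this stretch may not have been separated. No other Rac1 transcript is listed, so a total for the gene was not analysed here.

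Rac3, the Rac paralogue enriched in the nervous system, was also lower in every knockout library, at a much lower level. It stood at 1.31, 0.614, 1.24 and 0.762 FPKM in the controls and at 0.335, 0.0129, 0.0127 and 0.0126 FPKM in the knockouts. Knockout replicate 1 stood apart from the other 3 knockouts, which were close to 0, and the groups did not overlap. The means were 0.982 ± 0.346 FPKM in the control and 0.0933 ± 0.161 FPKM in the knockout. The log2(FPKM + 0.5) difference was -1.33 (SE 0.246), against a log2 fold change of -4.63 in the authors' deposited table. The size of the Rac3 difference therefore depends on how values near 0 enter. With a pseudocount of 0.1 it was -2.72, and with 1 it was -0.85. The authors' locus for this transcript runs from 120713925 to 120723969 and also holds Lrrc45, the protein-coding gene upstream on the same strand.

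Rock1, a kinase that promotes actomyosin contraction, did not separate the groups, although the authors' deposited table gives it a log2 fold change of -4.58. ENSMUST00000067947 (chromosome 18, 10064401 to 10181792, minus strand, in the authors' table) stood at 2.07, 1.11, 0.492 and 0.777 FPKM in the controls and at 3.04, 0.0135, 0.0155 and 0.00437 FPKM in the knockouts. Knockout replicate 1 was the highest of all 8 libraries, and the other 3 knockouts were the lowest. The means were 1.11 ± 0.685 FPKM in the control and 0.768 ± 1.51 FPKM in the knockout, a log2 ratio of means of -0.53. The log2(FPKM + 0.5) difference was -0.87 (SE 0.756), and without knockout replicate 1 it was -1.57. With no pseudocount the difference of mean log2 values over all libraries was -4.57. The size of the Rock1 difference thus depends on how the knockout values near 0 enter. GENCODE M21 gives the transcript a different 5′ end, at 10182045, and annotates 8 Rock1 transcripts, of which only this one is listed.

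**Figure D2:**
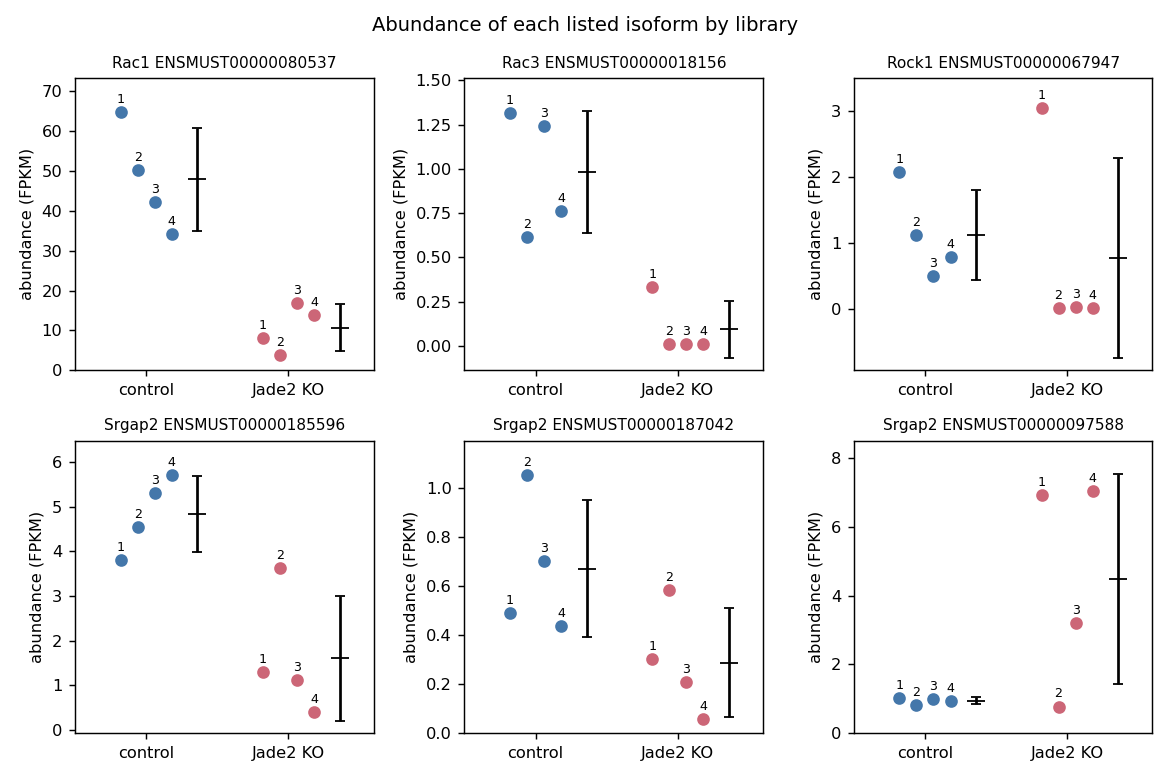
Abundance in FPKM of each listed isoform in the 4 control (blue) and 4 knockout (red) libraries, numbered by replicate, with the mean and SD in black and a separate linear axis per panel. Rac1, Rac3 and Srgap2 ENSMUST00000185596 do not overlap between groups, knockout replicate 1 is high for Rock1, and knockout replicate 2 lies near the controls for the Srgap2 isoforms.

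Srgap2 showed its listed transcripts in opposite directions. The full-length ENSMUST00000097588 was at 1.02, 0.812, 0.997 and 0.937 FPKM in the controls and at 6.92, 0.769, 3.21 and 7.04 FPKM in the knockouts. Knockout replicates 1, 3 and 4 were above every control, and replicate 2 was below every control. The means were 0.942 ± 0.0936 FPKM in the control and 4.48 ± 3.05 FPKM in the knockout, 4.76-fold higher in the knockout, with a log2(FPKM + 0.5) difference of 1.48 (SE 0.607). Without knockout replicate 2 the difference was 2.04.

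The transcript with its own last exon, ENSMUST00000185596, had the reverse pattern. It was at 3.80, 4.55, 5.32 and 5.72 FPKM in the controls and at 1.29, 3.63, 1.12 and 0.411 FPKM in the knockouts. The groups did not overlap, but knockout replicate 2 lay just under the lowest control. The means were 4.84 ± 0.848 FPKM and 1.61 ± 1.40 FPKM in control and knockout, with a log2(FPKM + 0.5) difference of -1.54 (SE 0.465).

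The short ENSMUST00000187042 was at 0.491, 1.05, 0.702 and 0.436 FPKM in the controls and at 0.302, 0.582, 0.207 and 0.0567 FPKM in the knockouts. Here the groups overlapped, again through knockout replicate 2. The log2(FPKM + 0.5) difference was -0.59 (SE 0.259). Of all 6 transcripts, 3 had all knockout libraries below all controls, and the share with that order over all 1679 listed transcripts was 16.4%. Since the rows were selected on this comparison, nothing is read from the count.

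Summed over its 3 listed transcripts, Srgap2 was at nearly the same level in the groups. GENCODE M21 annotates 12 Srgap2 transcripts, and those not listed were not analysed here, so the sum is not a total for the gene. The sums were 5.31, 6.41, 7.01 and 7.09 FPKM in the controls and 8.52, 4.98, 4.53 and 7.505 FPKM in the knockouts. The knockout libraries lay on both sides of the controls, with means of 6.46 ± 0.820 FPKM in the control and 6.38 ± 1.93 FPKM in the knockout. The log2(FPKM + 0.5) difference of the sums was -0.05 (SE 0.224). The sign of this small difference turned without knockout replicate 2 (0.04) and without knockout replicate 3 (0.09).

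The makeup of the sum was less alike. The full-length form took 19.2, 12.7, 14.2 and 13.2% of the listed Srgap2 FPKM in the controls and 81.3, 15.4, 70.8 and 93.8% in the knockouts. ENSMUST00000185596 took 70.9 to 80.6% in the controls, against 15.2, 72.9, 24.6 and 5.48% in the knockouts. Knockout replicate 2 thus had a makeup inside the range of the controls for both of these forms. Of the bases of ENSMUST00000185596, 77.6% are shared with another listed Srgap2 transcript, as are 92.0% of ENSMUST00000187042 and 34.8% of the full-length form. Their abundances therefore rest on the division of shared reads between models, most of all for ENSMUST00000187042. Listed transcripts in both directions were common in the table, found in 138 of the 214 loci (64.5%) with more than 1 listed transcript. Among those 138 loci, 12 had a smaller absolute log2(FPKM + 0.5) difference of summed levels than Srgap2, and the median was 0.31.

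**Figure D3:**
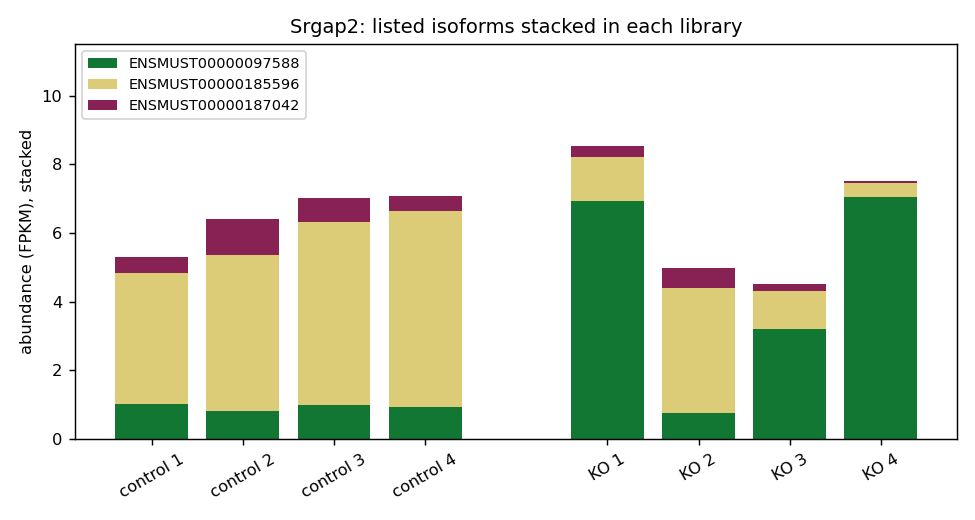
Stacked abundance in FPKM of the 3 listed Srgap2 transcripts in each of the 4 control and 4 knockout libraries. The column heights lie between 4.53 and 8.52 FPKM, while the full-length form (green) fills most of the column in knockout replicates 1, 3 and 4 and a small part in knockout replicate 2 and the controls.

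Rac1 was the highest of these transcripts in every library, and the order by mean below it differed between the groups. In the controls Rac1 was first at a mean of 47.9 FPKM and Srgap2 ENSMUST00000185596 second at 4.84 FPKM, each above all later ones in every library. The control ranges of Rock1 (0.492 to 2.07 FPKM), Rac3 (0.614 to 1.31 FPKM), the full-length Srgap2 form (0.812 to 1.02 FPKM) and Srgap2 ENSMUST00000187042 (0.436 to 1.05 FPKM) overlapped, so these 4 have no order there. In the knockouts Rac1 was again first in every library, at a mean of 10.7 FPKM. The means then ran from full-length Srgap2 at 4.48 through ENSMUST00000185596 at 1.61, Rock1 at 0.768 and ENSMUST00000187042 at 0.287 to Rac3 at 0.0933 FPKM. The ranges of every neighbouring pair overlapped, Rac1 and full-length Srgap2 included. In knockout replicate 2 ENSMUST00000185596 (3.63 FPKM) was above full-length Srgap2 (0.769 FPKM), against the order of the means.

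Transcripts whose library-to-library deviations were most like those of these genes were found from log2(FPKM + 0.5) values centred within each group, over 8 libraries and among listed transcripts averaging 1 FPKM or more. For Rac1 they were 1600014C10Rik ENSMUST00000178876 (Pearson r of 0.96) and Cdkn2d ENSMUST00000086374 (0.93), and for Rac3 they were Slc27a1 ENSMUST00000212889 (0.94) and Pkig ENSMUST00000099105 (0.92). For Rock1 they were the Rnf41 model MERGE.3223.4 and Miat ENSMUST00000181535, each at 0.99. The Rock1 likeness rests on knockout replicate 1: the noncoding RNA Miat was at 43.7 FPKM there and at 0.0412, 0.0376 and 0.111 FPKM in the other knockouts, with 8.26 to 64.7 FPKM in the controls. For Srgap2 ENSMUST00000185596 they were the unnamed models MERGE.23991.2 (0.94) and MERGE.27522.4 (0.92). These are the highest values among up to 849 candidates and are given as a description, with no test. Centring removes the difference between the groups, so likeness here says nothing about its direction. 1600014C10Rik and Cdkn2d were higher on average in the knockout, opposite to Rac1.

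The wider small GTPase and actin pathway was read from 9 lists with 183 genes, of which 20 have a listed transcript. Apart from the 6 transcripts above there were 25, of which 16 were higher and 9 lower in the knockout, with a median log2 fold change of 1.51 in the authors' deposited table. Over the whole list 815 were higher and 864 lower, with a median of -1.04. As no row is under 1.00 in size, a median falls on the side with more rows, and the medians are not compared. Of all 31, 1 passed an adjusted p of 0.05 in the authors' deposited table, against 15 (0.893%) of all 1679 rows. It was the actin-bundling Lcp1, which was higher. With limma, 0 of the 16 tested among these 25 passed an adjusted p of 0.05 and 12 had an unadjusted p under 0.05, against 0 (0%) and 599 (70.6%) of 849 over the table. All of these rows were selected on this same comparison, and limma was fitted to them alone. The unadjusted counts follow largely from that selection, so nothing is read from the limma counts.

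Among the GTPases, 3 of 9 Rac and Cdc42 family genes were listed. Besides Rac1 and Rac3 there was Rhog ENSMUST00000106923, a GTPase that acts upstream of Rac. It was at 1.41, 1.44, 0.0208 and 1.46 FPKM in the knockouts and at 0 in 3 controls and 0.0239 FPKM in control replicate 4. Its groups overlapped through knockout replicate 3.

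Among the 30 exchange factor genes, Dock9 and Dock10, which act on Cdc42 or on Cdc42 and Rac, were listed with 7 transcripts, 3 higher and 4 lower. Dock10 ENSMUST00000187774 had means of 8.79 ± 1.06 and 1.89 ± 3.78 FPKM in knockout and control, the control value coming from replicate 2 alone at 7.55 FPKM. The Dock10 model MERGE.726.4 was lower, at 0.286 ± 0.0858 and 1.05 ± 0.572 FPKM, as was MERGE.726.5, at 0.389 ± 0.162 and 0.776 ± 0.205 FPKM. Dock9 ENSMUST00000040700 averaged 2.61 ± 1.57 FPKM in the knockout and was at 0 in 3 controls and at 1.40 FPKM in control replicate 3.

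Of the 24 genes of GTPase-activating proteins and GDP-dissociation inhibitors, 4 were listed, with 3 transcripts higher and 1 lower besides Srgap2. The model MERGE.11851.11 carries no symbol and was assigned by position to Arhgap26, whose product acts on RhoA and Cdc42. This model had means of 6.32 ± 1.497 and 1.63 ± 1.01 FPKM in knockout and control, without overlap. Arhgap1 had a transcript in each direction. ENSMUST00000090614 averaged 7.86 ± 5.59 and 2.44 ± 2.12 FPKM in knockout and control, and MERGE.13930.2 averaged 2.66 ± 1.59 and 8.02 ± 3.87 FPKM. Abr ENSMUST00000065028, of a Rac-directed GTPase-activating protein, averaged 16.3 ± 8.00 and 6.97 ± 5.57 FPKM, with overlap.

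On the Rock branch, 4 of 29 genes were listed, with 4 transcripts higher and 1 lower besides Rock1. Myosin chains were among the higher ones. Myl6 ENSMUST00000217969 had means of 8.44 ± 3.43 and 2.81 ± 3.31 FPKM in knockout and control, Myl6 ENSMUST00000220427 averaged 0.622 ± 0.156 and 0.228 ± 0.287 FPKM, and Myh10 ENSMUST00000155765 averaged 1.09 ± 0.481 and 0.458 ± 0.302 FPKM, all with overlapping groups. Rtkn had a transcript in each direction. ENSMUST00000129316 had means of 0.118 ± 0.0693 and 0.561 ± 0.289 FPKM in knockout and control, without overlap. ENSMUST00000203183 was higher, at 2.22 ± 0.999 and 0.999 ± 0.320 FPKM in knockout and control, with overlap.

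On the Pak branch, 1 of 16 genes was listed, the Cdc42-binding kinase Cdc42bpa, with models MERGE.1675.7 at 2.91 ± 0.975 and 0.934 ± 0.932 FPKM and MERGE.1675.4 at 15.1 ± 12.5 and 2.19 ± 2.93 FPKM in knockout and control. No gene of the Pak kinases themselves was listed. Of 30 WAVE, WASP and Arp2/3 genes only Baiap2, which links Rac to WAVE, was listed, its model MERGE.5101.7 at 17.0 ± 5.42 and 37.7 ± 15.5 FPKM, with overlap. The Cdc42bpa and Baiap2 models carry no symbol and were assigned to these genes by position. Of 7 Slit and Robo genes only the guidance receptor Robo2 was listed, ENSMUST00000117200 at 0.546 ± 0.659 and 1.19 ± 0.364 FPKM.

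Of 28 actin and actin-binding genes 4 were listed. Lcp1 ENSMUST00000145303 was at 0 in all 4 controls and had a knockout mean of 2.71 ± 0.201 FPKM; it is also a gene of the microglial and leukocyte marker list. Actg1 ENSMUST00000156343, of cytoplasmic gamma-actin, averaged 5.05 ± 1.07 and 1.85 ± 0.708 FPKM, and Dbn1 ENSMUST00000124480, of the spine protein drebrin, averaged 0.623 ± 0.306 and 0.109 ± 0.0402 FPKM, both without overlap. Add1 ENSMUST00000152805, of an adducin that caps actin filaments, was at 1.92, 0.187, 97.5 and 2.43 FPKM in the knockouts and at 101, 75.6, 16.6 and 102 FPKM in the controls, so that knockout replicate 3 lay among the controls. Of the 25 transcripts, 6 had all knockout libraries above all controls and 3 below, against 19.7% and 16.4% of the table.

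**Figure D4:**
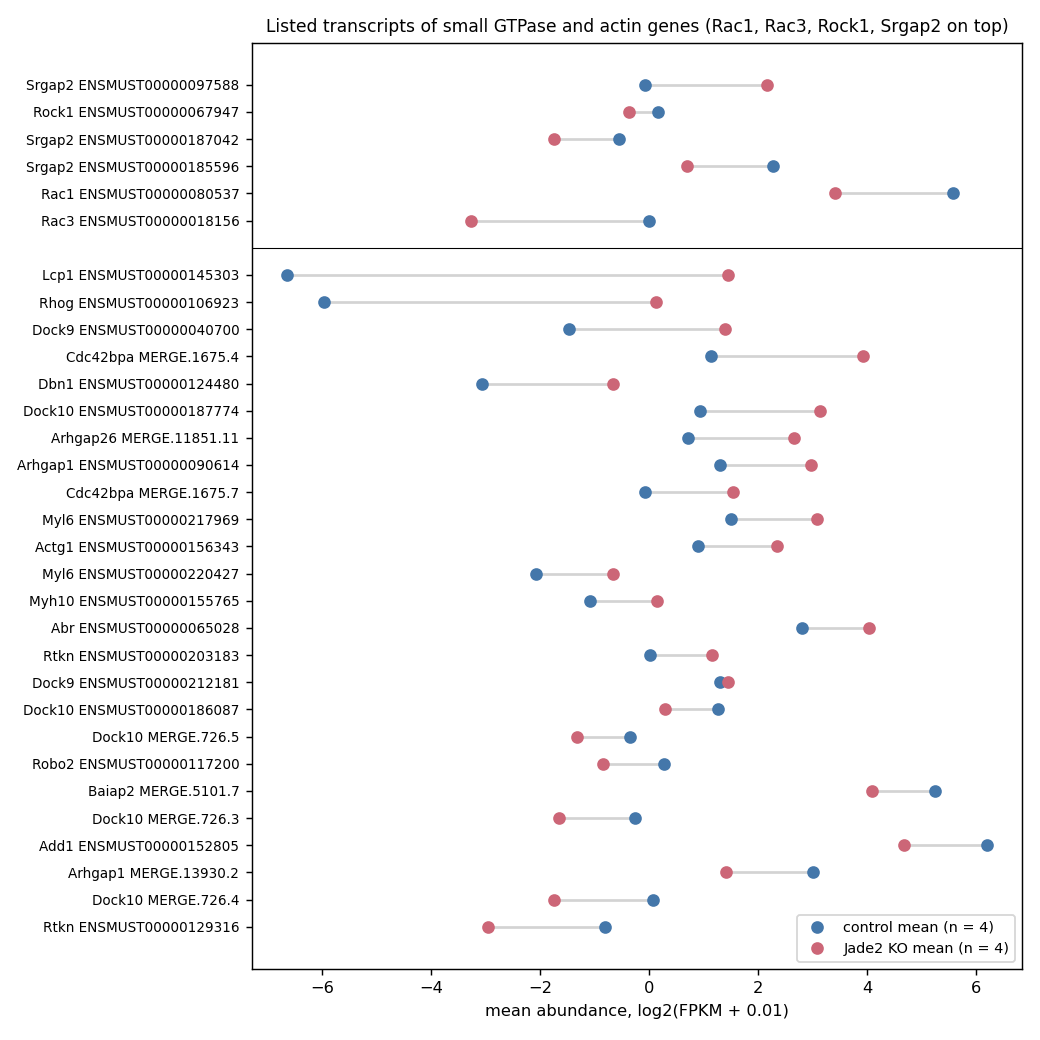
Mean abundance in control (blue) and knockout (red), n = 4 per group, on a log2(FPKM + 0.01) axis for the 6 Rac1, Rac3, Rock1 and Srgap2 transcripts (top) and the 25 other listed transcripts of the 9 pathway lists (below). The other transcripts lie in both directions, 16 higher and 9 lower in the knockout.

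Marker transcripts of other cell types were also in the table. Of 8 oligodendrocyte genes 2 were listed, and their summed level was 39.0 to 77.4 FPKM in the knockouts and 18.3 to 29.4 FPKM in the controls. Both Plekhb1 transcripts were higher and made up most of that sum, whereas Mag, a myelin adhesion protein, was lower in every knockout (0.619 to 2.42 FPKM) than in any control (2.53 to 2.97 FPKM). Of 5 precursor genes 1 was listed (0.572 to 2.04 and 0.00839 to 0.0520 FPKM), of 7 astrocyte genes 1 (2.41 to 9.29 and 0.0276 to 2.30 FPKM), and of 9 endothelial and mural genes 3 (10.1 to 17.8 and 1.78 to 11.4 FPKM). Of 14 microglial and leukocyte genes 3 were listed, with a sum of 4.77 to 6.47 and 2.88 to 22.5 FPKM. Of their 4 transcripts Lcp1 and the Fermt3 model MERGE.12388.2 were higher, and Csf1r and Fermt3 ENSMUST00000040772 were lower. Of 7 interneuron genes 0 were listed. Of 10 hippocampal neuron genes Grik4, Mpped1 and Prox1 were listed, with a sum of 49.97 to 86.8 and 33.4 to 95.5 FPKM, mostly Mpped1 in the knockouts. By mean, Mpped1 was higher and Grik4 and Prox1 were lower in the knockout. Their part in the Rac1, Rac3, Rock1 and Srgap2 values was not tested.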

How the data were processed

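RNA-seq of 4 control and 4 Jade2-knockout hippocampus libraries was analysed, grouped by the labels. Per the submitters' processing notes the tools were HISAT2 and Cuffdiff with mm10, with no versions. The deposited abundances carry no unit and are read here as FPKM because of Cuffdiff. The log2 fold changes and p-values in the table are the authors' own, from a test that the sources used here do not name. The deposited table is a list selected on this contrast, holds no counts, and leaves depth and counting error unknown. Members and lists were chosen with earlier results of these data known.

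Isoform and locus differences are differences of mean log2(FPKM + 0.5), with no test reported for the 6 isoforms. Such fold changes understate the change of low transcripts. For the pathway lists, transcripts averaging 1 FPKM or more were tested with limma 3.58.1 (R 4.3.3, variance trend, two-sided), with Benjamini-Hochberg adjustment over 104721 transcripts, the number implied by the authors' adjusted p-values. The table-wide fit, and the list counts under alternative settings, include the 3 of the 6 isoforms that pass this filter. The procedure was tested on simulated data, where it missed small changes and made more false calls than the threshold allows. Of 541 rows without a symbol, 12 were assigned to genes of the pathway and marker lists by locus or by 50% reciprocal same-strand overlap with GENCODE M21. For the overlap only genes of these lists were candidates, and other genes were not compared. Transcripts named are all members, up to 4 per pathway list by the authors' unadjusted p, and the 2 most alike for each gene. The other listed Rtkn transcript was added because it goes the other way. Python 3.11.15, numpy 2.4.6, pandas 2.3.3 and matplotlib 3.10.9 were used. Alternatives were other pseudocounts, filters and scaling, a ratio of means, a replicate block, no variance trend and each library left out.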

Additional observations from a re-analysis of the deposited data

Results flagged for a closer look

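In 11 of 54 groups of 4 values, 1 library lay apart from the other 3 by a share of the group's range above Dixon's critical value. Chance would give about 2.7 such groups (5%) for normally distributed values. The 54 groups are those of the members and of the pathway transcripts chosen by the authors' unadjusted p. Among the members this held for knockout replicate 1 of Rac3 (0.999 of the range) and of Rock1 (0.996). Among the other pathway transcripts the highest knockout library stood apart for Add1 ENSMUST00000152805 (0.977) and Arhgap1 ENSMUST00000090614 (0.843). The lowest knockout library stood apart for Dbn1 ENSMUST00000124480 (0.886) and Rhog ENSMUST00000106923 (0.961). The highest control stood apart for Dock10 ENSMUST00000187774 (1.00), Dock9 ENSMUST00000040700 (1.00), Rhog ENSMUST00000106923 (1.00), and the Cdc42bpa models MERGE.1675.7 (0.937) and MERGE.1675.4 (0.979).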

How the results depend on the processing

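Of 84 recalculated isoform and locus differences, 78 moved by less than 1 SD, 4 by more, and 2 changed sign. This SD is the spread between libraries on the log2 scale, pooled over the groups. Leaving out 1 of 4 libraries cannot move a difference that far, so the 78 are no measure of robustness. For Rock1 the SD (1.07) exceeded the size of the difference (-0.87), and -0.35 from the ratio of means counted as less than 1 SD. Those that moved by more were Rac3 with a pseudocount of 0.1 (-2.72) or 1 (-0.85), Rock1 with 0.1 (-2.08) and Srgap2 ENSMUST00000187042 with 0.1 (-1.12). There values near 0 are weighted differently by construction. Both sign changes were in the summed Srgap2 level, without knockout replicate 2 (0.04) and without knockout replicate 3 (0.0861), over a leave-one-out range of -0.20 to 0.09. With each library left out in turn the differences were -2.55 to -1.87 for Rac1, -1.50 to -1.22 for Rac3, -1.57 to -0.61 for Rock1, -1.94 to -1.21 for Srgap2 ENSMUST00000185596, -0.75 to -0.43 for ENSMUST00000187042 and 1.18 to 2.04 for ENSMUST00000097588. With no abundance filter limma called 7 transcripts in the table and 1 in the pathway lists, Lcp1, where 0 and 0 were reported. With a library left out it called 0 to 4 and 0 to 1, and the latter was Dock10 ENSMUST00000187774 without control replicate 2; the cause was not tested. With a replicate block limma called 0 transcripts in the table and 0 in the lists, and 519 in place of 599 had an unadjusted p under 0.05. Over listed transcripts averaging 1 FPKM or more, the correlation of deviations of same-numbered libraries was between -0.03 and 0.04. These rows were selected on the group comparison, so the correlations cannot tell whether the replicate numbers pair the libraries. Isoform values are limited by the unknown depth and by reads shared between models.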

Other observations

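The arrangement seen for Rock1, in which a single knockout library reached the control range while the other 3 stayed under 10% of the control median, was counted over the whole table after the Rock1 values were seen. It was found for 124 transcripts, 45 with knockout replicate 1 as the single library, 30 with replicate 2, 24 with replicate 3 and 25 with replicate 4. Rock1, Csf1r and Grik4 were among the 45. The mirror arrangement, a single control in the knockout range and the other 3 controls under 10% of the knockout median, was found for 123 transcripts, with 37, 24, 28 and 34 for control replicates 1 to 4.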
